A study of Mus musculus with 12 samples.

Results

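The cytochrome P450 genes of families 1 to 4 were measured in whole livers of 12 male C57BL/6J mice, aged 8 to 10 weeks, at 30 hr post-surgery. Members were all genes whose symbol is Cyp, a family number from 1 to 4, a subfamily letter and a number, with a mean of at least 1 CPM, the read count scaled to library size, over the 12 mice. Of 25611 genes in the table, 75 had such a symbol and 45 of these reached 1 CPM, all of which passed the low-count filter that left 13190 genes for testing. The 3 groups of 4 mice were sham mice, which had an abdominal incision without injury of the cecum, CLP mice, whose cecum was ligated and punctured to cause polymicrobial sepsis, and CLP+DCA mice, which were CLP mice injected with dichloroacetate (DCA), an inhibitor of the pyruvate dehydrogenase kinases. DCA was given at 25 mg/kg into the peritoneum at 24 hr, 6 hr before the livers were taken. No mouse carried an engineered allele, and each was assigned to its group at random and received saline under the skin after surgery. No group received DCA without CLP, so that the action of DCA alone was not measured, and what sham and CLP mice were injected with at 24 hr is not given in the sources used here.

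P450 enzymes are heme proteins of the endoplasmic reticulum that insert an oxygen atom into their substrates, with electrons passed on by P450 oxidoreductase and cytochrome b5. Enzymes of families 1 to 3 oxidize drugs, toxicants, steroids and bile acids, and some of them, such as the Cyp2j enzymes, also oxidize fatty acids. Those of family 4 hydroxylate fatty acids and eicosanoids. In liver the P450 enzymes are made mainly by hepatocytes, many of them around the central vein, and are controlled by HNF4α and by ligand-activated receptors such as AhR, CAR, PXR and PPARα. Loss of hepatic P450 mRNA during inflammation is a well known part of the acute phase response.

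Genes of these families lie in clusters of similar copies, and the similarity reaches into their promoters. RefSeq promoter windows from 250 bases before to 50 bases after the start site (build GRCm38.p6) were matched for 36 of the 45 genes, with 41 windows in all. The letters CAAAGTCCA, a core site of HNF4α, were found on either strand in 6 of the 41 windows (14.6%) and in 0.475% of 32851 windows of all genes. The 6 genes were 5 Cyp2c genes and Cyp3a11, and 60 bases around each match are shown because 4 of the 6 stretches are nearly the same sequence. All 6 genes lie on the minus strand, and each sequence reads along that strand with the match in capitals.
Cyp2c40: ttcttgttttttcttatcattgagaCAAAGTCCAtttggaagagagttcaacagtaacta
Cyp2c69: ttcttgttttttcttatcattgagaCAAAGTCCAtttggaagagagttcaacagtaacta
Cyp2c68: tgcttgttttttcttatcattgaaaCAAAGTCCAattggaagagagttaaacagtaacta
Cyp2c67: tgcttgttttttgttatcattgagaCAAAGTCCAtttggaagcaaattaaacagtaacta
Cyp2c70: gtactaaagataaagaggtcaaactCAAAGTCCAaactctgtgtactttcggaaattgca
Cyp3a11: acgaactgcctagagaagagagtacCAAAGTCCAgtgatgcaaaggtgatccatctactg
The stretches lie at chr19:39812825-39812884 for Cyp2c40, chr19:39886810-39886869 for Cyp2c69, chr19:39741144-39741203 for Cyp2c68, chr19:39649133-39649192 for Cyp2c67, chr19:40187316-40187375 for Cyp2c70 and chr5:145879929-145879988 for Cyp3a11.

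Cyp2c40 and Cyp2c69 were identical over the 60 bases, Cyp2c68 matched Cyp2c40 at 56 positions and Cyp2c67 at 54, while Cyp2c70 and Cyp3a11 matched the others at 18 to 25. The 6 matches are therefore not 6 separate observations. Of the other motifs searched on both strands, the D-box TTATGNAA was found in 3 windows (7.32%, against 3.38% of all windows), those of Cyp2a5, Cyp2b10 and Cyp4f14. GCGTG, the core bound by AhR, was found in 17.1% of the windows against 32.4% of all, and AGGTCAAAG, the first part of a site for PPARα and HNF4α whose last letters CAAAG also open the HNF4α letters above, in 2.44% against 0.426%, in Cyp2j5. GGGANTTTC for NF-κB and TTGCGCAA for C/EBP were not in these windows (1.11% and 0.183% of all windows). A match is a string of letters, not a measured binding site.

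Between 24436513 (CLP replicate 2) and 44266819 reads per mouse (CLP replicate 1) were counted on genes. The 12 hepatocyte markers summed to 65673 to 88394 CPM in sham, 38437 to 49727 CPM in CLP and 35204 to 62479 CPM in CLP+DCA. Of the 12, 9 were lower and 3 higher in CLP by log2 fold change. In 4 of them all CLP mice were below all sham mice (14.2% of all genes). In raw reads, from libraries of unlike depth, albumin reached 2137713 in a sham mouse, 1034611 in a CLP mouse and 1047271 in a CLP+DCA mouse. Ass1, also a hepatocyte gene, had at most 33 reads in a mouse. Summed markers of other cell types were 191 to 317 CPM in sham and 298 to 378 in CLP for 10 Kupffer cell and macrophage genes, 93.5 to 121 and 113 to 142 for 7 endothelial genes, 2.60 to 5.13 and 0.527 to 2.10 for 9 lymphocyte genes, and 35.3 to 54.9 and 53.0 to 228 for 8 stellate cell and cholangiocyte genes. Of these last 8, Des alone reached 7113 reads in a CLP mouse, against at most 93 in a sham mouse. By log2 fold change 6 of the 8 were higher in CLP, and in 4 all CLP mice were above all sham mice (12.2% of all genes). The lymphocyte sums are near the floor, as 4 of the 9 genes passed the low-count filter and none had over 40 reads in a mouse. In bulk liver, fewer cells of a type and less RNA per cell cannot be told apart. The 4 mice of a group are biological replicates. P-values set a difference between groups against the spread of mice within groups, which the main test estimates from all 12 mice together.

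In all, 3 libraries stood apart on the P450 genes. CLP+DCA replicate 3 had the lowest value of its group for 42 of the 45 genes, against 39.5% of all genes tested, and CLP replicate 2 had the lowest of its group for 39 of 45, against 31.2%. CLP replicate 4 was the next lowest by summed level. These mice also had the highest summed level of 35 acute phase genes in their groups, 441771 CPM in CLP replicate 2, 405431 in CLP replicate 4 and 398150 in CLP+DCA replicate 3, where the other CLP+DCA mice had 171612 to 211913 CPM and sham 127266 to 155147 CPM. The 12 neutrophil markers summed to 6.69 to 9.82 CPM in sham, 34.0 to 48.5 in CLP, 63.5 in CLP+DCA replicate 3 and 6.54 to 15.0 in the other CLP+DCA mice, with 1 to 3 of the 12 at 0 reads in a sham mouse and 0 to 2 in a CLP or CLP+DCA mouse. The part of all these cells and of the acute phase genes in the P450 results was not tested. Many summary values and some single genes are given with and without CLP+DCA replicate 3. Where only 1 value is given, it includes that mouse and may depend on it. For example, the log2 fold change of Cyp2a5 in CLP+DCA versus CLP was 2.38 with it and 2.77 without.

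The summed level shows the size of the P450 transcript pool (plot of the summed level by subfamily). The 45 genes added up to 22101, 20560, 22471 and 17409.5 CPM in sham replicates 1 to 4, the order of mice used throughout. In CLP the sums were 14371, 5374, 16885 and 7520.0 CPM. In CLP+DCA they were 17092, 16657, 3932 and 19420.3 CPM. Every CLP mouse was below every sham mouse, whereas CLP+DCA replicate 4 lay inside the sham range and replicates 1 and 2 just under it. P450 transcripts took 2.18% of all reads in sham mice, 1.07% after CLP and 1.48% after CLP+DCA. On the log2 scale the mean sum was lower by 1.05 in CLP than in sham (log2 ratio -1.05) and by 0.76 in CLP+DCA than in sham (log2 ratio -0.76), or by 0.22 without CLP+DCA replicate 3 (log2 ratio -0.22). These values compare with an SD between mice of a group of 0.779.

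**Figure D1:**
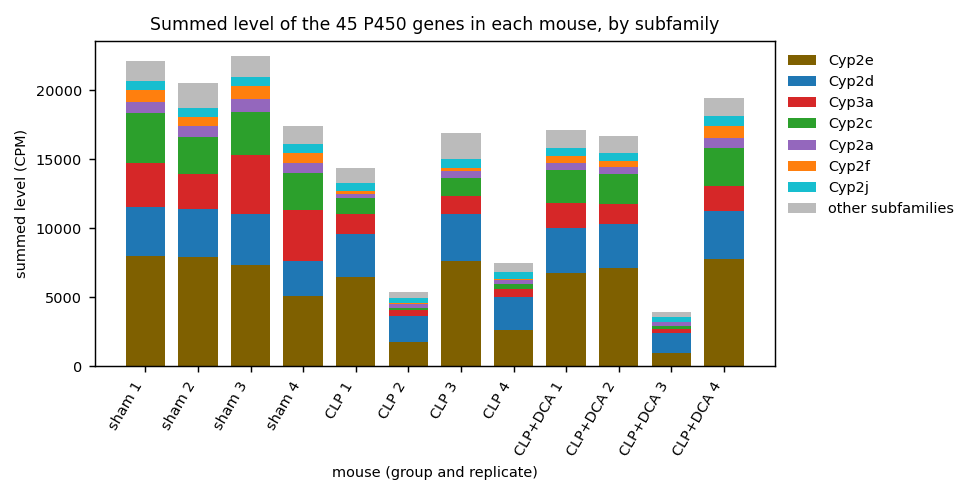
Summed level in CPM of the 45 P450 genes in each of the 12 mice, stacked by subfamily. Cyp2e, which is Cyp2e1 alone, is the largest block except in CLP replicate 2 and CLP+DCA replicate 3, where Cyp2d is, and CLP replicates 2 and 4 and CLP+DCA replicate 3 have the shortest bars.

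Per length of merged exons, Cyp2e1, which oxidizes ethanol and acetaminophen, had the highest level in sham, 3293 CPM per kb. Cyp2d26 with 547, Cyp2d9 with 432, Cyp3a11 with 424, Cyp2f2 with 393, Cyp3a25 with 379 and Cyp2d10 with 377 CPM per kb in sham followed. Merged exons can be longer than a transcript, for Cyp3a11 5093 bases against 2344 in its longest coding transcript. The order after Cyp2e1 depends on the length used. Cyp2e1 alone made up 29.4% to 38.7% of the P450 reads in sham, 32.4% to 45.1% in CLP and 24.0% to 42.9% in CLP+DCA. At the low end, Cyp2c55 with a mean of 1.48 CPM and Cyp2b10 with 1.80 CPM over the 12 mice lay just inside the limit of 1 CPM, and Cyp2a22 with 0.953 CPM and Cyp1b1 with 0.749 CPM just outside.

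CLP versus sham asked what sepsis at 30 hr did to these transcripts. Of the 45 genes, 38 were lower and 7 higher in CLP by log2 fold change, with a median of -0.76, where the median over all genes tested was 0.02. In 26 genes all 4 CLP mice were below all 4 sham mice (14.2% of all genes did this) and in 3 genes all were above (12.2% of all genes). The lower genes were led by Cyp2a5, Cyp2c69, Cyp2c40, Cyp1a2, Cyp2c55 and Cyp3a11, and the 3 higher ones were Cyp4a31, Cyp4f16 and Cyp4a32. None of the 45 was a DEG, which is a gene with an adjusted p under 0.05 in edgeR's quasi-likelihood test of all 12 mice, where 1.64% of all genes were DEGs higher and 1.14% lower in CLP. At an unadjusted p under 0.05, 21 of the 45 were lower (13.1% of all genes) and 3 higher (15.5%).

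That count of 0 depended on the test. DESeq2 on all 12 mice called 13 P450 genes lower (4.64% of all genes) and 3 higher (5.58%), and DESeq2 on the 8 mice compared called 24 lower (9.21%) and 3 higher (9.54%). edgeR without CLP+DCA replicate 3, a mouse outside this comparison that shares the estimate of the spread, called 22 lower (11.5%) and 3 higher (12.2%). Without CLP replicate 3 it called Cyp1a2, Cyp2a5 and Cyp2j9 lower (3.26% of all genes) and Cyp4f16 higher (4.2%). The share of the 45 called higher was at or below that of all genes in these fits except DESeq2 on all 12 mice. DESeq2 shares, here and below, count all genes with a p-value, low-count genes included. With 12 mice these were 18523 genes, against 13190 in edgeR. The shares of the 2 tools are therefore not on the same base, and that exception may rest on it. The 3 higher genes were the same under each of both DESeq2 settings and edgeR without CLP+DCA replicate 3. The smallest adjusted p of the 45 in the test of all 12 mice was 0.0527, that of Cyp4a31.

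**Figure D2:**
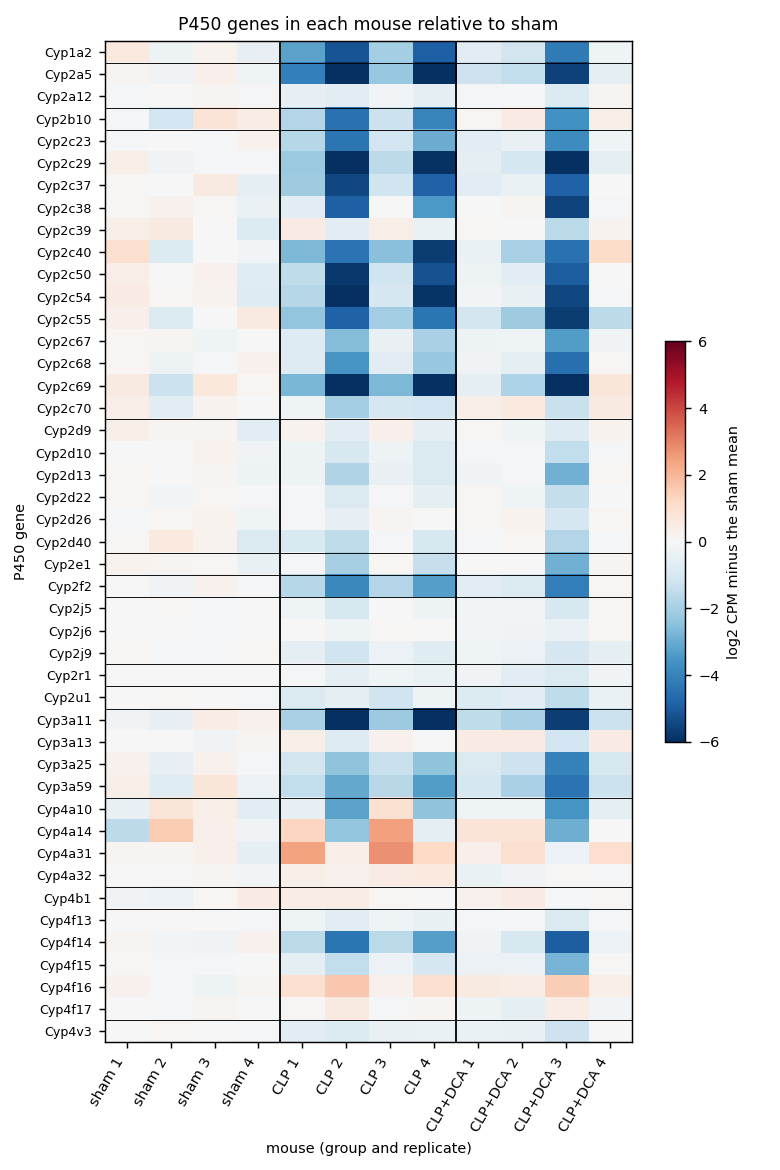
Level of each of the 45 P450 genes (rows, by subfamily) in each of the 12 mice (columns), as log2 CPM minus the sham mean of that gene, with colors limited to -6 and 6. The Cyp1a, Cyp2b, Cyp2f and most Cyp2c and Cyp3a genes are blue in all CLP mice and darkest in CLP replicates 2 and 4 and CLP+DCA replicate 3, while Cyp4a31, Cyp4a32 and Cyp4f16 are red in CLP.

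Family 1 was represented by Cyp1a2 (NCBI Gene 13077, chr9:57676937-57683655 on mm10), an AhR target that oxidizes caffeine and aromatic amines around the central vein. It was at 422, 230.2, 320.3 and 198 CPM in sham and at 29.96, 7.66, 68.04 and 9.43 CPM in CLP. In CLP+DCA it was at 174, 129, 14.98 and 237 CPM. All CLP mice lay far below sham, CLP replicates 2 and 4 lowest, and 1 CLP+DCA mouse of 4 lay within the sham range. The log2 fold change was -3.34 (SE 0.836, adjusted p = 0.0544) in CLP versus sham. The related Cyp1a1, under 1 CPM, was at 0.759 ± 0.190 CPM in sham and 0.234 ± 0.139 CPM in CLP, where ± gives the SD of the 4 mice here and throughout. Of the 3 P450 genes known as AhR responsive, Cyp1b1 was at 0.364 ± 0.254 CPM in sham and 1.10 ± 0.784 CPM in CLP and had a log2 fold change of 1.61 (SE 0.774, adjusted p = 0.192).

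The Cyp2a, Cyp2b and Cyp2f genes stand together on chromosome 7. Cyp2a5 (chr7:26835339-26843264), a coumarin hydroxylase, was at 435, 339, 484 and 322 CPM in sham and 22.8, 3.35, 80.6 and 5.03 CPM in CLP. It had the lowest log2 fold change of the 45, -3.81 (SE 1.08, adjusted p = 0.0694), and 14.4% of its 100-base windows also occur in another gene, mostly Cyp2a4. Cyp2b10, the classic target of CAR, was at 2.31, 1.04, 4.12 and 3.23 CPM in sham and 0.668, 0.0479, 0.943 and 0.0898 CPM in CLP, the latter from 1 to 39 reads per mouse. Its groups did not overlap (log2 fold change -2.46, adjusted p = 0.101). Cyp2f2, which activates naphthalene, was at 814, 674, 933 and 764 CPM in sham against 244, 54.8, 232 and 80.1 CPM in CLP, -2.38 on the log2 scale (adjusted p = 0.0748). In contrast to these 3, Cyp2a12, a steroid hydroxylase, was closer to sham, at 413 ± 37.1 CPM in sham and 300.5 ± 49.8 CPM in CLP (log2 fold change -0.46), again without overlap of the mice.

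Below 1 CPM, 30 genes with such a symbol were measured, 8 of them without a read, and 9 passed the filter. Cyp2a4, a female-biased steroid hydroxylase near-identical to Cyp2a5 and named here after its values were seen, was the 1 gene among them that was a DEG (1.14% of all genes were DEGs lower in CLP). It had 20 to 63 reads per sham mouse and 0 to 5 per CLP mouse, or 0.996 ± 0.488 and 0.0417 ± 0.0571 CPM, and fell by 4.16 on the log2 scale (SE 0.809, adjusted p = 0.0325). Reads of Cyp2a4 and Cyp2a5 cannot be told apart where the sequences match. The call was lost in 7 of the 12 fits that left out a mouse, with adjusted p from 0.00412 to 0.0996.

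The Cyp2c cluster on chromosome 19 was the largest group, with 13 genes that were all lower in CLP by log2 fold change (median -2.32). Of these 13, 10 were lower without overlap of the mice (14.2% of all genes). Cyp2c29 (chr19:39287085-39330713), an arachidonate epoxygenase induced through CAR, was at 1229, 849, 915 and 937 CPM in sham. In CLP it was at 211, 4.69, 325 and 16.1 CPM, a range of 69.3-fold among 4 mice of 1 group. All were below sham, but the SE of the log2 fold change was 1.20 (-2.82, adjusted p = 0.151). Cyp2c54, Cyp2c37 and Cyp2c50, which lie in the same cluster, also had all CLP mice below sham and the lowest CLP values in replicates 2 and 4. Cyp2c54 was at 289, 218, 237 and 122 CPM in sham and 63.8, 1.44, 104 and 3.46 CPM in CLP (log2 fold change -2.32, adjusted p = 0.215). Cyp2c37 had a log2 fold change of -2.54 and Cyp2c50 of -2.33 (adjusted p = 0.123 and 0.171).

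Other Cyp2c genes differed in how far they were from sham. Cyp2c23, an epoxygenase of arachidonic acid, was at 327 ± 40.96 CPM in sham and 75.2 ± 58.3 CPM in CLP (log2 fold change -2.12, adjusted p = 0.0921). Cyp2c70, which makes the muricholic acids of mouse bile, was at 489.7, 237, 423 and 375 CPM in sham and 311, 88.5, 185 and 165 CPM in CLP, with CLP replicate 1 inside the sham range (log2 fold change -1.02, adjusted p = 0.15). Cyp2c38 was at 30.9, 1.58, 49.1 and 4.45 CPM in CLP against 51.5, 58.1, 51.6 and 37.9 in sham, so that 1 CLP mouse lay among the sham mice and 2 were far below. Cyp2c39, a retinoic acid hydroxylase, was at 2.90 ± 1.07 and 2.76 ± 1.04 CPM, a log2 fold change of -0.05, which without sham replicate 2 was 0.14.

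Cyp2c40, Cyp2c67, Cyp2c68 and Cyp2c69, whose promoter stretches are printed above, share 44.1%, 23.7%, 19.8% and 36.3% of their 100-base windows with other genes, so that reads may have been split among them. The female-biased Cyp2c40 was at 10.8, 3.07, 5.38 and 4.90 CPM in sham and 0.783, 0.191, 0.919 and 0.0449 CPM in CLP. Cyp2c69, also female-biased, was at 6.03, 1.71, 6.49 and 4.60 CPM in sham and had at most 25 reads in CLP, with no read in replicates 2 and 4. Their log2 fold changes were -3.49 (adjusted p = 0.0729) and -3.76 (adjusted p = 0.0815). The more abundant Cyp2c67 and Cyp2c68, at 156 ± 19.3 and 179 ± 28.3 CPM in sham, were closer to sham in CLP, at 66.9 ± 41.2 and 67.05 ± 48.2 CPM. Their log2 fold changes were -1.22 and -1.41. Differences in fold between these 4 genes were not tested. Cyp2c55, a target of CAR and PXR, was at 3.83, 1.76, 3.04 and 4.62 CPM in sham and 0.553, 0.0479, 0.677 and 0.0898 CPM in CLP (log2 fold change -3.11, adjusted p = 0.0662).

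**Figure D3:**
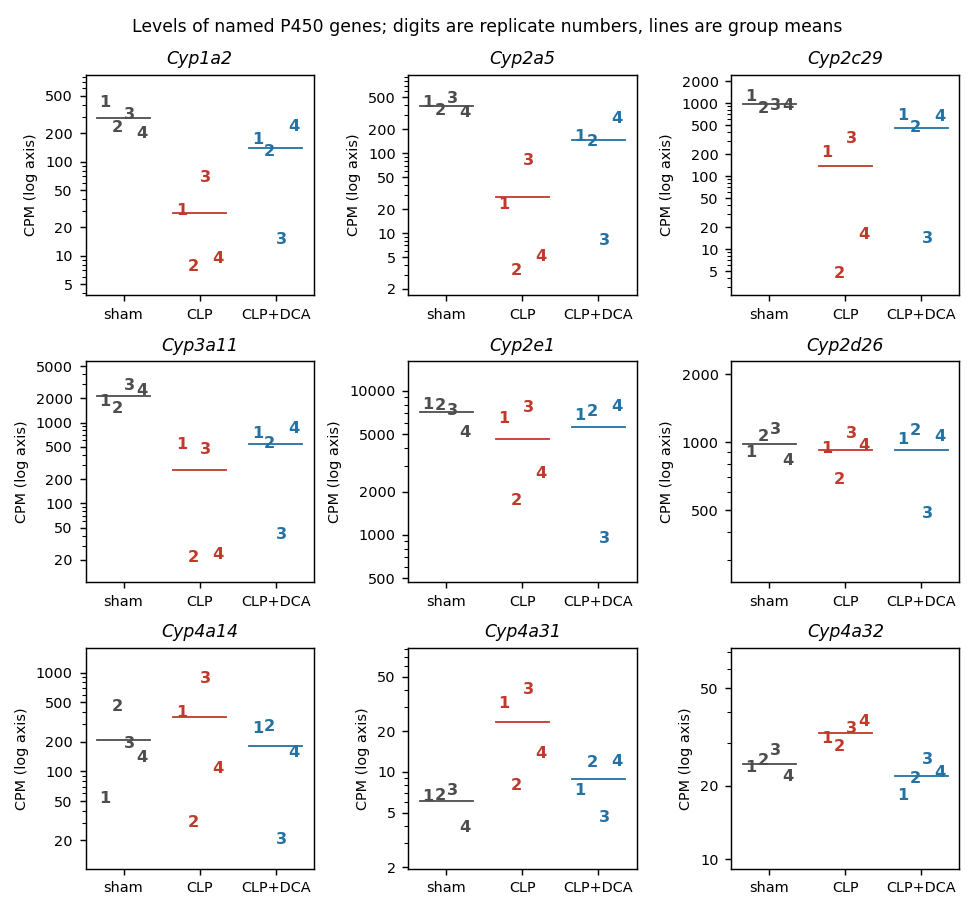
CPM (log axis) of 9 P450 genes in each mouse of the sham, CLP and CLP+DCA groups; digits give the replicate number and lines the group mean. CLP replicates 2 and 4 and CLP+DCA replicate 3 are the lowest of their groups for Cyp1a2, Cyp2a5, Cyp2c29, Cyp3a11, Cyp2e1, Cyp4a14 and Cyp4a31, whereas CLP+DCA replicate 3 is the highest of its group for Cyp4a32.

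Of the Cyp3a genes on chromosome 5, 3 of 4 were lower without overlap (14.2% of all genes). Cyp3a11 (chr5:145854607-145879854), the main drug-oxidizing Cyp3a enzyme of mouse liver and a PXR target, was at 1812, 1504, 2851 and 2461 CPM in sham. In CLP it was at 534, 21.4, 463 and 23.7 CPM, with replicates 2 and 4 far below replicates 1 and 3. The log2 fold change was -3.05 (SE 1.08, adjusted p = 0.102). Cyp3a25 was at 927, 546, 936 and 746 CPM in sham and 361, 143, 303 and 144 CPM in CLP (log2 fold change -1.73, adjusted p = 0.0837). Cyp3a59, which shares 5.61% of its windows with Cyp3a25, was at 53.8 ± 24.1 and 11.001 ± 6.66 CPM (-2.27, adjusted p = 0.0695). Cyp3a13 did not follow them, measuring 425, 427, 362 and 468 CPM in sham and 529.8, 245, 499 and 418 CPM in CLP, and its log2 fold change of 0.01 was -0.01 without the low-count filter and -0.12 without CLP replicate 1.

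Of the 11 genes listed as responsive to CAR or PXR, 9 passed the filter, and 8 of these were lower in CLP, all 8 without overlap of the mice (14.2% of all genes) and 7 at an unadjusted p under 0.05 (13.1% of all genes). The median log2 fold change of the 9 was -2.46. Their summed level was 4250.1 to 6203 CPM in sham and 429.8 to 1999 CPM in CLP. These genes were put together from general knowledge of their receptors, and their response to either receptor was not measured here. Lists drawn up by other traits gave these counts for CLP versus sham. Of 13 genes for arachidonate or leukotriene enzymes, 11 passed the filter, with 7 lower and 4 higher and a median of -0.35. Of 9 female-biased genes 3 passed, Cyp2a4, Cyp2c40 and Cyp2c69, all lower. The 3 male-biased genes, Cyp2d9, Cyp4a12a and Cyp4a12b, were lower by log2 fold change with every group overlapping.

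The Cyp2d genes on chromosome 15 stayed nearer to sham. All 6 had negative log2 fold changes (median -0.48), but the mice of 1 gene only, Cyp2d10, did not overlap (14.2% of all genes were lower without overlap). Cyp2d9, a male-biased testosterone hydroxylase, was at 1419, 1231, 1251 and 689 CPM in sham and 1267, 713, 1383 and 764 CPM in CLP (log2 fold change -0.15, SE 0.295). Cyp2d26 was at 981 ± 142 and 919 ± 170.1 CPM, and its log2 fold change of -0.09 was 0.02 without CLP replicate 2. Cyp2d22, a relative of the human drug enzyme CYP2D6, was at 206 ± 19.97 and 159 ± 38.7 CPM. Cyp2d10, Cyp2d13 and Cyp2d40 had log2 fold changes of -0.59, -0.76 and -0.85 (adjusted p = 0.19, 0.315 and 0.202).

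Cyp2e1 (chr7:140763832-140774977) was at 8014, 7951, 7348 and 5117 CPM in sham and 6459, 1739, 7607 and 2658 CPM in CLP. CLP replicates 1 and 3 were inside the sham range and replicates 2 and 4 far below it (log2 fold change -0.62, SE 0.583, adjusted p = 0.483). The Cyp2j genes on chromosome 4 encode epoxygenases of arachidonic acid. Cyp2j5 was at 585 ± 33.0000 CPM in sham and 458 ± 112 CPM in CLP, and Cyp2j6 at 63.3 ± 1.66 and 60.6 ± 6.01 CPM. Cyp2j9 was at 11.6, 10.6, 10.4 and 12.1 CPM in sham and 7.53, 4.88, 8.78 and 6.82 CPM in CLP, a small but regular difference without overlap (log2 fold change -0.67, SE 0.188, adjusted p = 0.0685).

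Cyp2r1, a vitamin D 25-hydroxylase, was at 22.2, 21.5, 22.4 and 21.6 CPM in sham and 21.2, 14.6, 18.1 and 16.6 CPM in CLP, all CLP mice lower (log2 fold change -0.31, adjusted p = 0.201). Cyp2u1, a fatty acid hydroxylase, was at 16.6, 16.7, 16.3 and 14.8 CPM in sham and 8.89, 10.6, 6.96 and 12.9 CPM in CLP (log2 fold change -0.71, adjusted p = 0.0819). Unlike most members, Cyp2u1 was not lowest in CLP replicates 2 and 4, which had the highest 2 values of the group.

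The Cyp4a genes, fatty acid omega-hydroxylases and the classic targets of PPARα, had a mean summed level of 435 CPM in sham (217 to 787) and 539 CPM in CLP (86.99 to 1294), and a log2 ratio of the summed level of -0.20, so that the means and the log2 values differed in sign. Cyp4a31 (chr4:115563649-115579015) was at 6.58, 6.76, 7.25 and 3.88 CPM in sham and 31.7, 7.90, 40.6 and 13.6 CPM in CLP, where every mouse was above sham. Its log2 fold change was 1.95 (SE 0.478, adjusted p = 0.0527), the largest positive value of the 45. Cyp4a32 was at 23.7, 25.2, 27.7 and 21.7 CPM in sham and 31.2, 28.9, 34.3 and 36.4 CPM in CLP, also without overlap (0.41, SE 0.116, adjusted p = 0.0685). Cyp4a14 was scattered, at 52.7, 456, 194 and 137 CPM in sham and 393, 30.6, 882 and 107 CPM in CLP, and its log2 fold change of 0.75 was -0.24 without CLP replicate 3. Cyp4a10 was at 129, 19.5, 336 and 33.4 CPM in CLP and 134, 299, 229.5 and 115 CPM in sham (-0.58, SE 0.833). Within CLP, replicates 1 and 3 had the highest and replicates 2 and 4 the lowest values of Cyp4a10, Cyp4a14 and Cyp4a31. The median of the 4 log2 fold changes was 0.58, and 2 were higher at an unadjusted p under 0.05 (15.5% of all genes). Cyp4a32 shares 20.1% of its windows with other genes, mostly Cyp4a10.

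The male-biased Cyp4a12a and Cyp4a12b, a near-identical pair of arachidonate hydroxylases, fell outside the members because their symbols end in a letter. Cyp4a12a was at 218 ± 59.8 CPM in sham and 155 ± 40.7 CPM in CLP, and Cyp4a12b at 63.5 ± 5.33 and 40.5 ± 14.2 CPM (log2 fold changes -0.49 and -0.65, adjusted p = 0.209 and 0.0731).

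The Cyp4f enzymes hydroxylate leukotrienes and other fatty acids, and their genes on chromosome 17 went both ways. Cyp4f14 was at 190.3, 155, 146 and 203 CPM in sham and 55.8, 8.19, 56.5 and 17.2 CPM in CLP (log2 fold change -2.33, adjusted p = 0.0965). Cyp4f15 at 146 ± 7.44 and 84.6 ± 26.7 CPM and Cyp4f13 at 67.2 ± 2.17 and 50.7 ± 7.04 CPM were also lower in every CLP mouse, with log2 fold changes of -0.79 and -0.40. The low-level Cyp4f16 was at 2.01, 1.56, 1.33 and 1.91 CPM in sham and 3.34, 5.36, 2.03 and 3.37 CPM in CLP, above sham in every mouse (1.04, SE 0.321, adjusted p = 0.0774), with 9.71% of its windows shared with Cyp4f37, which had no read. Cyp4f17 at 9.53 ± 0.740 and 10.9 ± 1.93 CPM and Cyp4b1 at 7.77 ± 2.11 and 9.20 ± 1.42 CPM overlapped between groups. Cyp4v3, the mouse counterpart of the human eye disease gene CYP4V2, was at 348, 369, 336 and 310.0 CPM in sham and 211, 192, 249 and 258 CPM in CLP (-0.58, adjusted p = 0.111).

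CLP+DCA versus CLP asked whether DCA given to septic mice altered these levels 6 hr later. With all 12 mice, 33 of the 45 genes were higher and 12 lower in CLP+DCA by log2 fold change, with a median of 0.29. None was a DEG in edgeR (0.00758% of all genes higher and 0% lower), and 7 were higher (5.06% of all genes) and 2 lower (4.94%) at an unadjusted p under 0.05. Only Cyp4a32 did not overlap between the groups, lower in CLP+DCA (2.05% of all genes), and no P450 gene was higher without overlap (2.32% of all genes). DESeq2 called Cyp4a32 alone, lower, whether fitted to 12 mice or to the 8 compared (0.34% and 0.214% of all genes), and no P450 gene higher (0.394% and 0.225%).

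Without CLP+DCA replicate 3, 37 genes were higher and 8 lower, with a median of 0.65 (all genes -0.01). Of the 45, 21 then had all 3 CLP+DCA mice above all 4 CLP mice (12.4% of all genes) and 2, Cyp4a32 and Cyp4f17, had all below (10.4%). edgeR then called Cyp2b10, Cyp2c40, Cyp2c70 and Cyp2f2 higher (2.01% of all genes) and Cyp4a32 lower (2.63%). The mouse left out carries the same label as the other 3, and the values without it describe what 1 mouse does to the group.

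**Figure D4:**
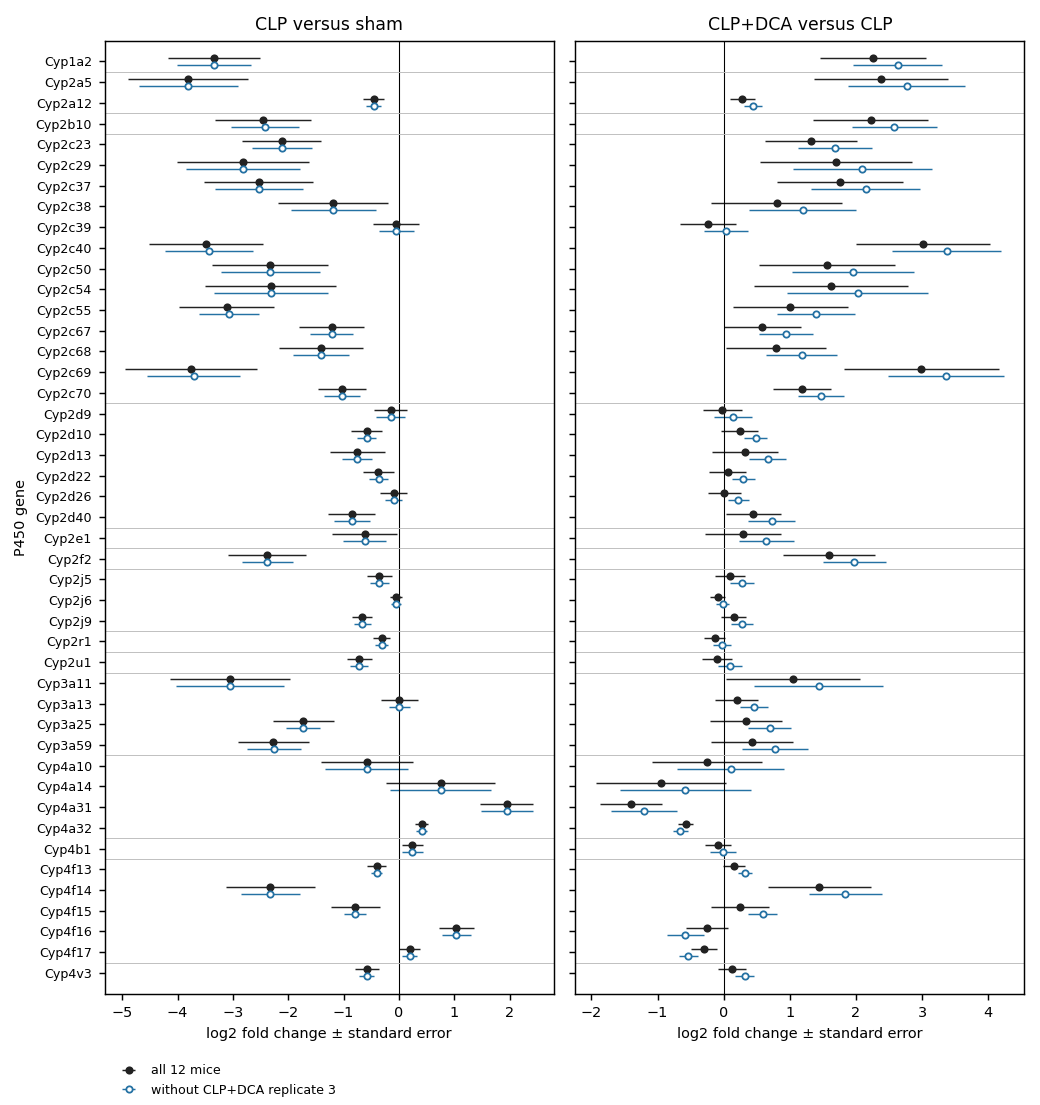
Log2 fold change ± standard error of the 45 P450 genes in CLP versus sham (left) and CLP+DCA versus CLP (right), from edgeR on all 12 mice (filled) and without CLP+DCA replicate 3 (open). The left values hardly move while their errors shrink, and most right values move to the right, as Cyp2c70 does from 1.19 to 1.47.

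Cyp2c70 shows this pattern in its levels. It was at 468, 554, 147 and 537 CPM in CLP+DCA, where replicates 1, 2 and 4 were above every CLP mouse and replicate 3 was among them. The log2 fold change was 1.19 (SE 0.437, adjusted p = 0.415) with all mice and 1.47 (SE 0.348, adjusted p = 0.0412) without replicate 3. Cyp2f2 was at 508, 437, 44.3 and 856 CPM in CLP+DCA, a log2 fold change of 1.60 and, without replicate 3, 1.97 (adjusted p = 0.475 and 0.0447). Cyp2b10 was at 2.55, 3.33, 0.135 and 3.09 CPM, 3 mice within the sham range and 1 at the CLP level. Its log2 fold change was 2.22, or 2.58 without replicate 3 (adjusted p = 0.437 and 0.0456). Cyp2c40 was at 4.09, 1.38, 0.190 and 11.7 CPM, a wide range that stayed wide without replicate 3 (log2 fold change 3.01 and 3.37, adjusted p = 0.393 and 0.0485).

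For Cyp1a2, the log2 fold change of CLP+DCA versus CLP was 2.26 (SE 0.800, adjusted p = 0.402), and 2.63 (adjusted p = 0.0549) without replicate 3. Cyp2a5 was at 163, 142, 7.99 and 270.1 CPM in CLP+DCA (2.38, adjusted p = 0.467). Cyp2c29 was at 669, 464, 14.1 and 659 CPM (1.70, SE 1.15). In all 3 genes, CLP+DCA replicates 1, 2 and 4 lay between CLP and sham or inside sham, and replicate 3 lay among the lower CLP mice. Cyp3a11 was at 730.3, 545, 41.1 and 844 CPM, where replicates 1, 2 and 4 exceeded all CLP mice but stayed below all sham mice (1.05, SE 1.01, adjusted p = 0.756). Cyp2e1 was at 6776, 7144, 943 and 7752 CPM, 3 mice in the sham range (0.29, SE 0.581).

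The 4 Cyp4a members were all lower in CLP+DCA than in CLP by log2 fold change, with a median of -0.76. For Cyp4a10 this rested on CLP+DCA replicate 3, as its value of -0.25 was 0.11 without that mouse. Outside the members, Cyp4a12a and Cyp4a12b had log2 fold changes of 0.20 and 0.04. Cyp4a32 was at 18.3, 21.4, 25.5 and 22.7 CPM in CLP+DCA, below every CLP mouse, CLP+DCA replicate 3 included (-0.57, SE 0.116, adjusted p = 0.158, the smallest of the 45 in this comparison). Without replicate 3 it was -0.65 (adjusted p = 0.0192). Cyp4a31 was at 7.31, 11.7, 4.66 and 11.96 CPM, overlapping CLP replicate 2 (7.90 CPM) but below every other CLP mouse (-1.41, SE 0.468, adjusted p = 0.393). Cyp4a14 was at 269.8, 285, 20.7 and 156 CPM, and its log2 fold change of -0.95 was 0.04 without CLP replicate 3. Thus Cyp4a31 and Cyp4a32, above sham in CLP, were at 8.90 ± 3.54 and 21.97 ± 2.998 CPM in CLP+DCA against 6.12 ± 1.52 and 24.6 ± 2.53 CPM in sham.

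CLP+DCA versus sham asked what remained different from sham after DCA. By log2 fold change 40 of the 45 genes were lower and 5 higher, with a median of -0.45, or -0.23 without CLP+DCA replicate 3. No P450 gene was a DEG in edgeR (0.0303% of all genes higher and 0.00758% lower). At an unadjusted p under 0.05, 6 were lower (4.85% of all genes) and 1 higher (8.14%), and without overlap 10 were lower (4.97% of all genes) and 1, Cyp4f16, higher (4.78%). DESeq2 called Cyp2u1 lower in both of its fits (0.426% and 0.367% of all genes) and no P450 gene higher (0.907% and 0.573%). This comparison and CLP versus sham share their sham mice, and the values for each gene are given side by side.

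The 10 genes still below sham in every CLP+DCA mouse were Cyp2a5, Cyp2c23, Cyp2c29, Cyp2c55, Cyp2j9, Cyp2r1, Cyp2u1, Cyp3a11, Cyp3a25 and Cyp3a59. Cyp3a11 had a log2 fold change of -1.998 (SE 1.04, adjusted p = 0.424) in CLP+DCA versus sham, beside -3.05 in CLP versus sham. Cyp3a59 was at 24.2, 13.01, 2.27 and 20.5 CPM (-1.84 beside -2.27) and Cyp3a25 at 426, 328, 46.8 and 402 CPM (-1.39 beside -1.73). Cyp2c55 was at 1.40, 0.672, 0 and 1.02 CPM, from 0 to 44 reads (-2.10 beside -3.11). Cyp2u1 was at 9.003, 9.95, 5.50 and 12.3 CPM (-0.81, SE 0.227, adjusted p = 0.251), Cyp2r1 at 19.1, 14.01, 11.9 and 19.1 CPM (-0.45) and Cyp2j9 at 9.42, 8.81, 5.58 and 7.44 CPM (-0.52). For these 3 small differences, CLP and CLP+DCA lay close together and CLP+DCA replicate 3 was lowest but not far from the others.

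Other members were near or above sham in CLP+DCA replicates 1, 2 and 4. Cyp2c70 had a log2 fold change of 0.16 in CLP+DCA versus sham, which was -0.01 without sham replicate 2 and 0.45 without CLP+DCA replicate 3. Cyp3a13 was at 583, 587, 188 and 582 CPM, with replicates 1, 2 and 4 above every sham mouse and replicate 3 below all of them. Its log2 fold change was 0.20 (adjusted p = 0.788) and, without replicate 3, 0.47 (adjusted p = 0.525). Cyp2e1 was at -0.33 with all mice and 0.02 without CLP+DCA replicate 3. Cyp4f16 was at 2.49, 2.32, 4.71 and 2.19 CPM, above sham in all 4 mice (0.79, adjusted p = 0.337), with replicate 3 highest. A p that misses the threshold does not show that CLP+DCA and sham were alike, since the SE for the Cyp2c, Cyp3a and Cyp2a genes reached 1.14.

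The spread between mice differed between the groups. In sham, 1 of the 45 had an SD of log2 CPM over 1, against 0.766% of all genes tested. Among CLP mice it was 21 of 45, against 3.6% of all genes, and in CLP+DCA 24 of 45, against 6.19%. The P450 genes of families 5 and higher showed it too, with 5 of 12 over 1 in CLP and 4 of 12 in CLP+DCA, and the SD of Cyp7a1 in CLP was 4.49. The widest of the 45 in CLP were Cyp2c54 with an SD of 3.03 and Cyp2c29 with 2.93. Cyp2j6, Cyp4a32, Cyp4v3 and Cyp4f13 had an SD of at most 0.21 in CLP. By mouse, the median log2 difference from the sham mean over the 45 genes was -0.58, -2.01, -0.36 and -0.99 in CLP replicates 1 to 4 and -0.23, -0.28, -2.87 and -0.03 in CLP+DCA replicates 1 to 4.

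The partners of the P450 enzymes were read from the same test. Por, the oxidoreductase that feeds electrons to all microsomal P450 enzymes, was at 399.9, 388, 437 and 485 CPM in sham. Its CPM was 379.9, 342, 395 and 218 among CLP mice and 451, 399, 235 and 490.1 among CLP+DCA mice (log2 fold change -0.36 in CLP versus sham, adjusted p = 0.313). Cyb5a, cytochrome b5 of the endoplasmic reticulum, was at 737, 699, 764 and 580.4 CPM in sham and 382, 175, 485 and 233 CPM in CLP, without overlap (-1.12, adjusted p = 0.135). Cyb5b, the cytochrome b5 of the outer mitochondrial membrane, was at 489.7, 502, 465 and 475 CPM in sham and 331, 254, 332 and 269.8 CPM in CLP, and it fell by 0.70 on the log2 scale (SE 0.166, adjusted p = 0.0479). Of 9 genes listed as electron donors 8 passed the filter, and 7 were lower by log2 fold change in CLP. At an unadjusted p under 0.05, 4 were lower (13.1% of all genes), namely Cyb5a, Cyb5b, Cyb5r3 and Pgrmc1. Of these 1, Cyb5b, was a DEG (1.14%). The list also holds Pgrmc1 and Pgrmc2, which bind P450 enzymes but are not electron donors themselves. The call of Cyb5b was lost in 9 of 12 fits without a mouse, with adjusted p up to 0.137 (without CLP replicate 2).

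Heme, the cofactor of every P450 enzyme, is made from glycine in a chain of steps that starts with Alas1 in liver. Alas1 was at 267, 509, 461 and 489.6 CPM in sham and 288, 182, 377 and 139 CPM in CLP. CLP+DCA mice had 686, 743, 152 and 463 CPM. The CLP mice overlapped sham, and CLP+DCA replicates 1, 2 and 4 were above all CLP mice (log2 fold change -0.81 in CLP versus sham and 1.05 in CLP+DCA versus CLP, adjusted p = 0.244 and 0.467). Without CLP+DCA replicate 3 the latter was 1.35 (adjusted p = 0.0447). Of the 9 heme synthesis genes, 7 were lower in CLP by log2 fold change, and at an unadjusted p under 0.05 this held for 4 (Alad, Alas2, Fech and Urod, against 13.1% of all genes), with Cpox higher (15.5% of all genes). Among 4 heme breakdown genes, Hmox2, the constitutive heme oxygenase, rose slightly, from 31.02, 27.9, 28.1 and 29.5 CPM in sham to 35.4, 38.01, 36.3 and 38.2 CPM in CLP (0.34, SE 0.0717, adjusted p = 0.039), a call lost in 8 of 12 fits without a mouse. It was the 1 DEG of the 4 (1.64% of all genes were DEGs higher in CLP). The inducible Hmox1 was at 19.7, 14.8, 17.001 and 16.96 CPM in sham, 18.96, 30.6, 25.2 and 29.7 CPM in CLP and 20.7, 22.5, 59.9 and 14.1 CPM in CLP+DCA (0.61, adjusted p = 0.281), highest in CLP+DCA replicate 3.

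**Figure D5:**
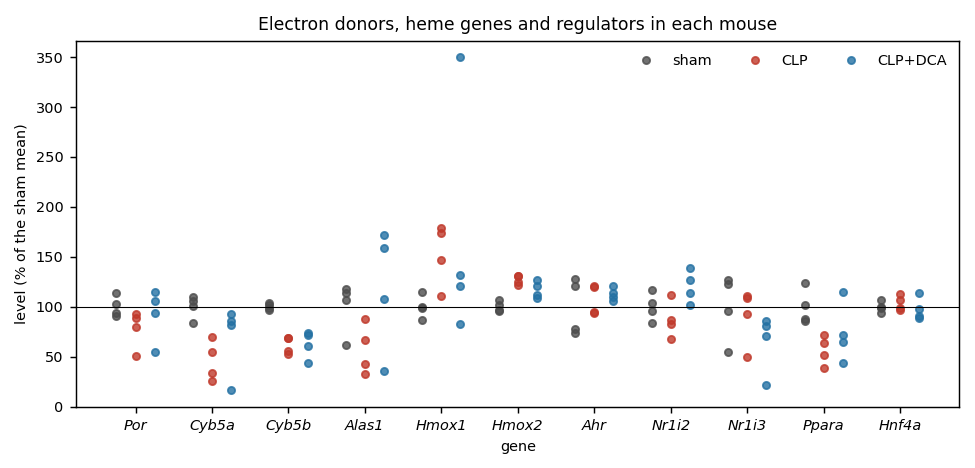
Level of 11 electron donor, heme and regulator genes in each mouse, as percent of the sham mean (line at 100). Cyb5a and Cyb5b lie below sham in every CLP mouse and Hmox2 above it, whereas Ahr, Nr1i2, Nr1i3 and Hnf4a overlap sham.

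Of 26 regulator genes 25 passed the filter, and at an unadjusted p under 0.05 in edgeR the CLP level was below sham for 8 (13.1% of all genes) and above it for 1 (15.5% of all genes). Transcripts of the receptors themselves overlapped between sham and CLP for Ahr (46.998 ± 13.3 and 50.4 ± 7.13 CPM), Nr1i2, which encodes PXR (67.9 ± 9.47 and 59.3 ± 12.5 CPM), and Nr1i3, which encodes CAR (126 ± 41.7 and 114 ± 35.2 CPM). Their log2 fold changes were 0.10, -0.20 and -0.14, and leaving out sham replicate 4 turned that of Ahr to -0.02 and leaving out CLP replicate 2 that of Nr1i3 to 0.06. Hnf4a was at 714 ± 39.03 CPM in sham and 739.6 ± 53.2 CPM in CLP. Ppara was at 294, 413, 341 and 287 CPM in sham and 212, 129.7, 238 and 171 CPM in CLP, lower without overlap (-0.83, adjusted p = 0.0869). Dbp, a clock-controlled activator that binds the D-box, was at 68.2, 78.5, 79.8 and 70.7 CPM in sham, 14.1, 1.34, 34.6 and 3.91 CPM in CLP and 46.7, 56.02, 3.44 and 68.1 CPM in CLP+DCA (-2.44 in CLP versus sham, adjusted p = 0.111), with the same 3 mice lowest as for most P450 genes.

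Many P450 enzymes of families 5 and higher make or break down sterols, bile acids, steroid hormones and retinoic acid. Of the 12 at 1 CPM or more, CLP was below sham for 7 and above for 5, with a median log2 fold change of -0.11. Cyp7a1, the rate-limiting enzyme of bile acid synthesis, was at 159, 191, 73.2 and 179 CPM in sham and 40.9, 0, 21.4 and 0.404 CPM in CLP (-3.24, adjusted p = 0.165). Cyp27a1, of the alternative bile acid pathway, was at 436 ± 54.3 and 232 ± 69.4 CPM (-0.91, adjusted p = 0.0981). Cyp17a1, a steroid hydroxylase, was at 7.85, 7.25, 6.62 and 29.3 CPM in sham and 98.2, 279, 46.5 and 242 CPM in CLP, highest in replicates 2 and 4 (3.70, adjusted p = 0.065). Cyp26b1, which degrades retinoic acid, rose from 1.64, 1.71, 0.760 and 1.59 CPM to 2.72, 16.5, 4.86 and 7.27 CPM (2.44, SE 0.561, adjusted p = 0.0472), a call lost in 8 of 12 fits without a mouse. It was the 1 DEG of the 12 (1.64% of all genes were DEGs higher in CLP). The difference between the families was not tested.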

How the data were processed

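Livers of 12 mice, 4 per group, were taken 30 hr after surgery. According to the study's methods, poly(A) RNA was made into TruSeq v2 libraries, which do not mark strand, sequenced paired-end, aligned to mm10 with STAR 2.5 and counted per gene with featureCounts of Subread 1.5.0-p1. The annotation and strand setting are not given in the sources used here. The authors deposited 1 table of raw read counts for 25611 genes, of which 6769 had no read, with each gene's coordinates. Every column was mapped to a mouse by its label (columns not mapped: 0).

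Genes passing filterByExpr (minimum count 10) were tested with edgeR 4.0.16 (R 4.3.3, limma 3.58.1): TMM scaling, 1 robust quasi-likelihood fit of all 12 mice, and Benjamini-Hochberg adjustment over all genes tested at 0.05. The fit was tested on simulated data in which each gene had the same dispersion in all groups. The unequal spread of the P450 genes between groups was therefore not covered by that test. CPM uses TMM-scaled library sizes, and levels per kb use merged exon lengths. "No overlap" means that all mice of 1 group lie beyond all of the other. Depth was 24436513 to 44266819 reads. DESeq2 1.42.0 and other settings were alternatives. Pairs of mice of a group differed by more than sampling noise, so each counts once.

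Members and lists were chosen with earlier results of these data known. Named genes were DEGs, the most abundant of each subfamily, the 3 largest and smallest log2 fold changes per comparison at 5 CPM or more, genes at the 1 CPM limit and a set of partners and regulators. All further genes were chosen after their values were seen. A search for a heme-binding signature in proteins was not run.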

Additional observations from a re-analysis of the deposited data

Results flagged for a closer look

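Within each group of 4 mice, the gap of the highest or lowest mouse to its nearest neighbour was divided by the range of the group (Dixon's ratio) and compared with its 95% critical value. Of 177 groups of values tested, 9 exceeded it, and chance flags about 1 in 20 groups. All 9 were CLP+DCA values and in all 9 the mouse was replicate 3. It was lowest for Cyp2c38 (ratio 0.8453), Cyp2c67 (0.9134), Cyp2d10 (0.9283), Cyp2d26 (0.8456), Cyp2e1 (0.8567), Cyp3a13 (0.9877), Cyp4f13 (0.9073) and Cyb5a (0.8531), and highest for Cyp4f16 (0.8827). Cyp3a13 was at 583, 587, 188 and 582 CPM, Cyp2d10 at 565, 581, 226 and 591 CPM and Cyp2c67 at 124, 128, 15.3 and 134 CPM in CLP+DCA replicates 1 to 4. The same mouse had 63.5 CPM of neutrophil markers and 398150 CPM of acute phase genes, the highest of its group, and their part in its P450 levels was not tested.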

How the results depend on the processing

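The counts of P450 DEGs, 0 in each direction of each comparison with edgeR on all 12 mice, stayed at 0 with RLE scaling, with library sizes free of acute phase genes, without robust estimation and without the low-count filter. For CLP versus sham they were 13 lower and 3 higher with DESeq2 on 12 mice, 24 and 3 with DESeq2 on the 8 mice compared, 17 and 3 with edgeR on those 8 mice (8.99% and 9.26% of all genes), and 12 and 3 at an FDR of 0.10 (6.9% and 8.43%). Leaving out 1 mouse in turn gave 0 to 22 lower and 0 to 3 higher, with 3 lower and 1 higher without CLP replicate 3 and 22 and 3 without CLP+DCA replicate 3. DESeq2 gave 1 lower gene in CLP+DCA versus sham and 1 lower in CLP+DCA versus CLP, on 12 and on 8 mice. For CLP+DCA versus CLP, leaving out a mouse gave 0 to 4 higher and 0 to 1 lower, the 4 and the 1 without CLP+DCA replicate 3. The causes were not tested. The median log2 fold change of the 45 genes ranged from -0.97 to -0.62 in CLP versus sham, -0.55 to -0.23 in CLP+DCA versus sham and 0.13 to 0.65 in CLP+DCA versus CLP when 1 mouse was left out. The log2 ratio of the summed level in CLP+DCA versus CLP, 0.29 with all mice, was -0.01 without CLP replicate 2 and 0.83 without CLP+DCA replicate 3.

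Sign changes were sought in 92 pairs of a gene and a comparison. Among these the following log2 fold changes changed sign, given with their range over the fits without 1 mouse. For CLP versus sham, Cyp4a14 ranged from -0.2437 (without CLP replicate 3) to 1.47, Ahr from -0.0222 (without sham replicate 4) to 0.2388, Nr1i3 from -0.349 to 0.0552 (without CLP replicate 2), Cyp2c39 from -0.2725 to 0.1366 (without sham replicate 2), Cyp2d26 from -0.1867 to 0.0231 and Cyp2j6 from -0.1046 to 0.0045 (both without CLP replicate 2), and Cyp3a13 from -0.1194 (without CLP replicate 1) to 0.1967, with -0.0068 without the low-count filter. Cyp4a14 in CLP+DCA versus CLP ranged from -1.33 to 0.0433 (without CLP replicate 3). In CLP+DCA versus sham, Cyp2c70 ranged from -0.0087 (without sham replicate 2) to 0.448 and Cyp2e1 from -0.5213 to 0.0233 (without CLP+DCA replicate 3). Other members outside these 92 pairs also changed sign without CLP+DCA replicate 3. Among them, Cyp2b10 went from -0.2353 to 0.165 in CLP+DCA versus sham and Cyp4a10 from -0.2533 to 0.1088 in CLP+DCA versus CLP. Without the low-count filter, adjusted p was 0.0653 for Cyb5b, 0.0653 for Hmox2 and 0.0657 for Cyp26b1.

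Replicate numbers did not pair the mice: over 12 pairs with the same number in different groups, the deviations from the group means correlated at -0.46 to 0.55, with 1 pair over 0.1. With the replicate block in the fit, 0 of the 45 genes were called in any comparison, and the medians were -0.79, -0.47 and 0.28. In that block fit the adjusted p was 0.108 for Cyb5b, 0.0945 for Hmox2, 0.0992 for Cyp26b1 and 0.0707 for Cyp2a4.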
